A study of Mus musculus with 10 samples.

Results

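The transcripts described here are 10 genes read widely as markers of macrophages and of leukocytes as a class: Ptprc, Cd68, Cd14, Laptm5, Tyrobp, Fcer1g, Ly86, Csf1r, Lyz2 and Cd52. They were taken as every probe set of the deposited table that names 1 of these genes and no other. That gave 17 probe sets for 10 genes, out of 8251 genes named singly on the array, and 6 of the 10 genes had more than 1 probe set. Kidney RNA was hybridised to Affymetrix MG_U74Av2 arrays, with 1 array per animal and mice of 8 weeks. The 5 transgenic animals (TG 614, 619, 652, 657 and 661) carry a construct of human WT FGF23 under a promoter that the labels call 1 alpha col 1, and the 5 wild-type littermates (WT 612, 618, 650, 658 and 663) do not. The strain is given as C57Bl for all 10 animals, and because the genotype field reads FGF23 TG for all 10, groups were taken from the titles. The sources used here do not state which cells make the transgene product. The animal numbers fall into a range of 612 to 619, with 2 TG and 2 WT animals, and a range of 650 to 663, with 3 TG and 3 WT animals.

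Healthy kidney holds a network of resident macrophages and dendritic cells between its tubules, and monocytes and lymphocytes enter it when tissue is injured. Ptprc, Laptm5 and Cd52 mark blood-derived cells broadly. Csf1r receives the growth factors on which macrophages depend. Cd14 belongs to a receptor complex that senses bacterial lipopolysaccharide, and Ly86 encodes the partner of the Toll-like protein Cd180. Tyrobp and Fcer1g are membrane adaptors that pass receptor signals to the kinase Syk. Lyz2 and Cd68 are products of the phagocyte's granules and lysosomes. In RNA of whole kidney, more cells of a type and more RNA per cell cannot be told apart.

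Values are log2 expression from GCRMA, as deposited, and a log2 value of 4 served as the floor of the filter, which is not a measured limit of detection. The share of probe sets over the floor ranged from 53.0% to 57.0% by array, and arrays correlated at 0.980 to 0.998 with each other over all non-control probe sets. Xist and the Y-linked Eif2s3y put 2 females and 3 males in each genotype, the females being WT 612, WT 650, TG 614 and TG 652. The tissue read as kidney on all arrays: the proximal tubule genes Slc34a1 and Kap had WT means of 13.66 and 14.15, and Umod of the thick ascending limb 12.88. The 4 arrays of animals 612 to 619 came from 1 chip lot and 1 fluidics station. Of the other 6 arrays, only WT 650 shared that lot, so lot and number range can hardly be told apart. The actin control read 3.35 and 2.90 higher at its 3' than its 5' end (log2) in WT 612 and WT 618, against 1.82 to 2.58 in the other 8 animals.

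Of the 10 genes, 7 passed the filter (log2 over 4 on at least 5 of 10 arrays) and 3 did not, and of the 17 probe sets 9 passed. Of those 7 genes, 0 passed the test between TG and WT (limma, adjusted p under 0.05), where 1.22% of the 6814 tested probe sets did. All 7 had a positive TG minus WT difference, with a median of 0.40, against -0.017 over all tested probe sets, of which 46.2% were positive. Without adjustment, 3 of the 7 had p under 0.05 (Lyz2, Csf1r and Cd52), against 12.7% of tested probe sets. TG 619 was the highest of the 10 animals for 7 of 7 genes, against 5.59% of all tested probe sets. TG 614 and TG 619 were the 2 highest for 5 of 7, against 5.03%. These counts take the brightest probe set of each gene. For the second tested probe set of Laptm5, TG 614 was highest, at 6.53 against 6.29 in TG 619. For that of Csf1r, TG 661 was highest, at 6.96 against 5.96 in TG 619. Other models gave 0 of the 7 too: with sex as a term, where 4.18% of tested probe sets passed, with number range, where 1.78% did, and, over all 10 genes, with no filter, where 0.386% did.

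**Figure D1:**
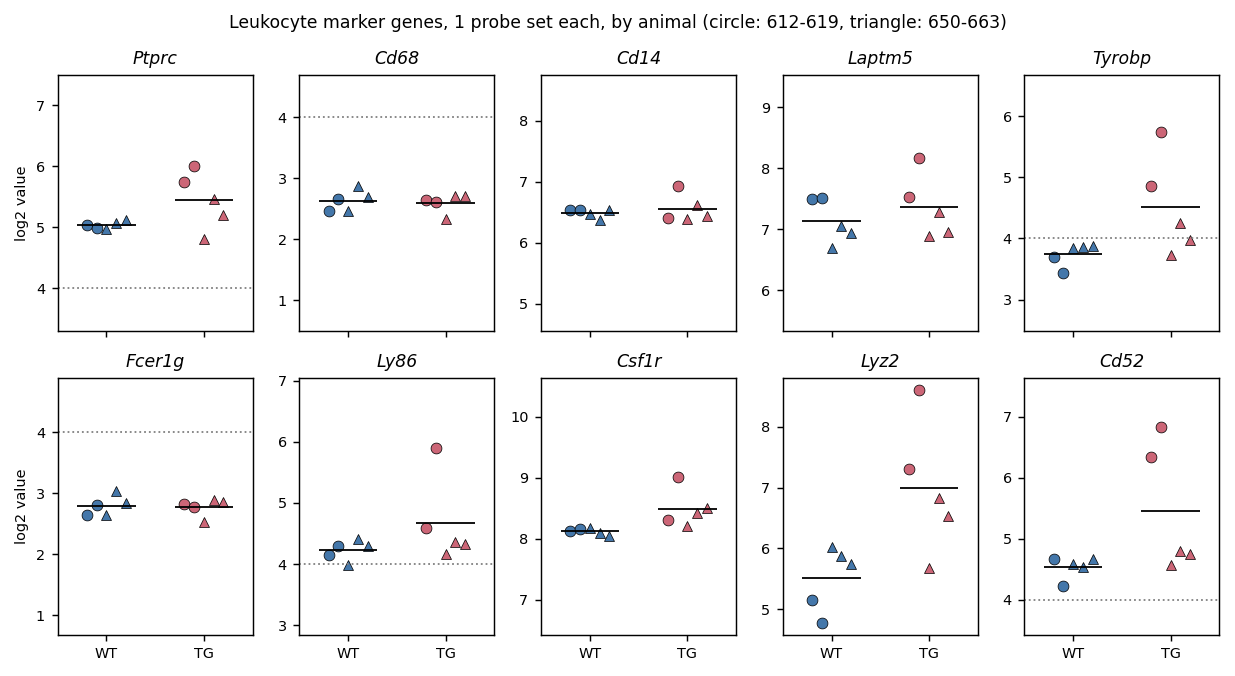
Log2 value of each of the 10 marker genes in each animal, 1 probe set per gene (that with the highest mean), WT in blue and TG in red, circles for animals 612 to 619 and triangles for 650 to 663. The horizontal line is the group mean, the dotted line the floor of 4, and each panel has its own vertical range. For Lyz2 and Cd52 the TG circles stand highest, at 7.31 and 8.60 for Lyz2 and 6.35 and 6.83 for Cd52, while Cd68 and Fcer1g lie under the floor in all animals.

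The regulatory sequence before the start of these genes was looked at because several of them were high in the same animals. The transcription factor PU.1, product of Spi1, is known to bind a GAGGAA core before many myeloid genes, and many such promoters are known to lack a TATA box. Promoter windows of 250 bases before an annotated start were in the RefSeq-derived table (GRCm38.p6) for 6 of the 10 genes, in 7 windows of which the 2 of Ptprc overlap. GAGGAA was found on either strand in 3 of the 7 windows (1 of Ptprc, and those of Cd68 and Laptm5), and in 23.3% of all 32851 windows of that length. TATAAA was found in 2 of the 7 (Ptprc and Laptm5), against 12.4% of all windows. Shown are the windows of Lyz2, the gene with the largest difference, and of Ly86, whose product partners Cd180. That of Cd68 is shown as one with the core. The windows of Ptprc and Laptm5, which also hold it, are not printed because they lie within the span of another annotated transcript. Capitals mark GAGGAA, which occurs 225 bases before the start of Cd68 and not in the other pair. The windows lie just before the annotated start, that of Lyz2 at chr10:117282273-117282522 (minus strand), that of Ly86 at chr13:37345095-37345344 (plus strand) and that of Cd68 at chr11:69666171-69666420 (minus strand), each read 5' to 3' along the gene.
Lyz2: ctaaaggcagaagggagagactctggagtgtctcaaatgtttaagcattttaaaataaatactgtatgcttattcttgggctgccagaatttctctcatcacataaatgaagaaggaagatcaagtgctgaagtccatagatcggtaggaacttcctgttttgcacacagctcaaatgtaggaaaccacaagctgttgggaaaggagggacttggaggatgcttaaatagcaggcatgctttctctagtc
Ly86: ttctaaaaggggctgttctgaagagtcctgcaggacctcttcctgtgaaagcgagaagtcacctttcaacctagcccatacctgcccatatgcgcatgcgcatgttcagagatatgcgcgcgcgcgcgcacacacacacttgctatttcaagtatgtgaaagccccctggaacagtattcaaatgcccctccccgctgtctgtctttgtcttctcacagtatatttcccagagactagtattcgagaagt
Cd68: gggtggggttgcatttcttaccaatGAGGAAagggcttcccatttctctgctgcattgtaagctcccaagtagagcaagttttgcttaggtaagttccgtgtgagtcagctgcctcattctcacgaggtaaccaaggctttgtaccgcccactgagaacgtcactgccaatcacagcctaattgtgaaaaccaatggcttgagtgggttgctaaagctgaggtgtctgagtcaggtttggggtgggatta
A match describes the letters of a window only, and a window without one says nothing about binding of the factor.

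Among the pan-leukocyte genes, Ptprc encodes CD45, the receptor tyrosine phosphatase of all nucleated blood-derived cells. Its probe set 101048_at read 5.05, 4.99, 4.97, 5.07 and 5.12 in WT 612, 618, 650, 658 and 663. In TG 614, 619, 652, 657 and 661 it read 5.75, 6.00, 4.81, 5.46 and 5.21. The WT animals lay within a narrow band, 4 of 5 TG animals were above it, and TG 652 was below it. The means were 5.44 ± 0.46 in TG and 5.04 ± 0.06 in WT (log2, SD, n = 5), a log2 difference of 0.40 ± 0.19 (SE, adjusted p = 0.412). It was 0.27 without TG 619 and 0.11 with all probe sets of the gene averaged. The other probe sets of Ptprc, 101298_g_at and 101297_at, lay at 3.23 to 4.13 and were not tested.

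Cd52 encodes a small lipid-anchored glycoprotein on the surface of lymphocytes and monocytes. It read 4.67, 4.23, 4.59, 4.54 and 4.67 in the WT animals, in the order of their numbers. The TG values were 6.35 in TG 614, 6.83 in TG 619, 4.57 in TG 652, 4.81 in TG 657 and 4.74 in TG 661. TG 614 and TG 619 stood well over all others, TG 657 and TG 661 were just above the highest WT value of 4.67, and TG 652 lay within the WT values. The means were 5.46 ± 1.05 and 4.54 ± 0.18 (SD, n = 5), a log2 difference of 0.92 ± 0.41 (SE, adjusted p = 0.390). Without TG 619 it was 0.58, and with 16 added to the linear values 0.67.

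Laptm5 encodes a lysosomal membrane protein of blood-derived cells. Its 2 probe sets both passed the filter and gave log2 differences of 0.23 ± 0.25 (161819_f_at, adjusted p = 0.758) and 0.47 ± 0.30 (100012_at, adjusted p = 0.572). For 161819_f_at, WT 612 and WT 618 were at 7.50 and 7.51, about level with TG 614 at 7.54, and TG 619 was at 8.17. In the 650 to 663 range the same probe set lay at 6.70 to 7.05 in WT and 6.89 to 7.29 in TG. Laptm5 was thus higher in the lower number range in both genotypes, and the genotypes overlapped in the higher range. The size depended on single animals: 161819_f_at differed by 0.026 without TG 619, 0.12 without WT 650 and 0.35 without TG 652, and 100012_at by 0.27 without TG 614 and 0.29 without WT 658. In the same order, the 2 probe sets differed by 0.49 and 0.78 with the actin 3' to 5' difference as a covariate and by 0.38 and 0.71 with chip lot as a block, and neither passed in any of these.

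Csf1r encodes the receptor for the growth factors CSF1 and IL34. With its brighter probe set, 104354_at, the WT animals read 8.04 to 8.17, and TG 614, 619, 652, 657 and 661 read 8.31, 9.02, 8.20, 8.43 and 8.51. It was the 1 gene of the 7 in which every TG animal lay above every WT animal, a pattern held by 2.17% of all tested probe sets. The means were 8.49 ± 0.31 and 8.12 ± 0.05 (SD, n = 5), a log2 difference of 0.37 ± 0.14 (SE, adjusted p = 0.296). The separation gives the smallest two-sided p that an exact permutation test of 5 against 5 can reach, 0.00794, which was 0.195 after adjustment over all tested probe sets. The log2 difference was 0.24 without TG 619 and 0.15 with both probe sets of the gene averaged. The other probe set of the gene, 161832_r_at, differed by -0.08 ± 0.22 (adjusted p = 0.912) with TG 661 highest at 6.96, so the pair did not show the same order of animals.

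Cd14 and Ly86 differed from each other. Cd14, a co-receptor of Toll-like receptor 4, read 6.38 to 6.54 in WT and 6.41, 6.93, 6.39, 6.62 and 6.45 in TG 614, 619, 652, 657 and 661. TG 619 stood highest and the other TG animals overlapped WT, with a log2 difference of 0.06 ± 0.11 (SE, adjusted p = 0.856), and without TG 619 the difference was -0.029. Ly86 encodes MD-1, the partner of the Toll-like protein Cd180. It read 3.98 to 4.41 in WT, 5.90 in TG 619, 4.59 in TG 614 and 4.17 to 4.36 in the other TG animals. The log2 difference of 0.44 ± 0.29 (SE, adjusted p = 0.572) was 0.13 without TG 619, so that much of it rested on 1 animal. With 16 added to the linear values it was 0.28.

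Lyz2 encodes lysozyme M, the bacteriolytic enzyme of macrophages and granulocytes, and showed the largest difference of the 7 genes. Probe set 100611_at read 5.15, 4.78, 6.02, 5.87 and 5.74 in WT 612, 618, 650, 658 and 663. It read 7.31, 8.60, 5.68, 6.84 and 6.53 in TG 614, 619, 652, 657 and 661. Of the TG animals 4 lay above every WT animal, and TG 652 lay among them. The means were 6.99 ± 1.08 in TG and 5.51 ± 0.53 in WT (SD, n = 5), 2.79-fold higher, a log2 difference of 1.48 ± 0.47 (SE, adjusted p = 0.202). Without TG 619 it was 1.08, and with both probe sets of the gene averaged 0.72. A probe set shared by Lyz1 and Lyz2, 101753_s_at, which is outside the 17, differed by 1.65 ± 0.48 (adjusted p = 0.160), and signals of the related lysozymes cannot be separated there. The other probe set of Lyz2 alone, 162309_at, lay at 1.89 to 2.40.

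**Figure D2:**
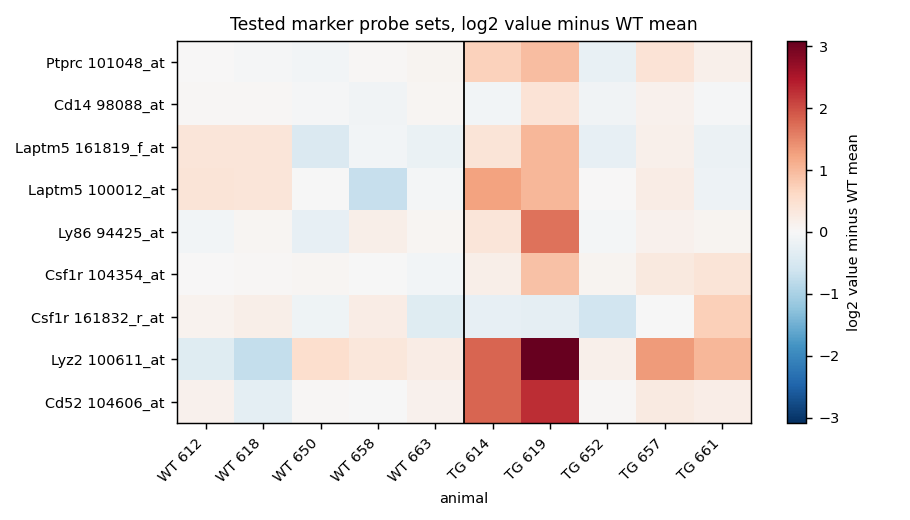
Log2 value minus the WT mean for the 9 tested marker probe sets (lines, with gene and probe set) in each of the 10 animals (columns, WT left of the line), red for higher and blue for lower. TG 614 and TG 619 carry the strongest reds, up to Lyz2 in TG 619 at 8.60 against a WT mean of 5.51, and the second probe set of Csf1r shows another order.

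The 3 genes that were not tested fell into different kinds. Tyrobp, the adaptor also called DAP12, was over the floor on 3 arrays, those of TG 614 at 4.86, TG 619 at 5.74 and TG 657 at 4.26. TG 661 and TG 652 read 3.98 and 3.73, and the 5 WT animals read 3.43 to 3.87. Its log2 difference without the filter was 0.77 ± 0.32 (SE, adjusted p = 0.545), or 0.57 with values under the floor set to 4. In animals 612 to 619 it was 1.73, or 1.30 with values under the floor set to 4, and in animals 650 to 663 it was 0.13. Cd68, a glycoprotein of macrophage lysosomes, and Fcer1g, the common gamma chain of Fc receptors, were under the floor on every array with both of their probe sets. In all, 6 of the 17 probe sets were over the floor on no array. They were lowest in TG 652 for 6 of 6 and highest in WT 658 for 5 of 6, and these arrays also had the lowest and highest median of the probe sets left out by the filter, at 2.60 and 3.03. No order of the genotypes is read from Cd68 and Fcer1g.

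Other defining macrophage genes were under the floor on every array as well: Adgre1 (F4/80) reached at most 3.28, Itgam 2.48 and Cx3cr1 2.22. The label of the 10 genes as macrophage and leukocyte markers thus rests here on those that could be read, not on the most specific ones. Of the markers that were readable, Csf1r and the complement C1q genes are known from resident macrophages of the kidney.

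Within animals 612 to 619 the marker genes differed more. The median of the 7 differences was 0.85, against 0.0095 over all tested probe sets. Both TG animals lay above both WT animals for 6 of 7 genes, against 22.6% of all. These values take the brightest probe set of each gene. The second probe set of Laptm5, 100012_at, differed by 0.74, also with both TG animals above both WT animals. That of Csf1r, 161832_r_at, differed by -0.40. Its TG values, 5.97 and 5.96, lay below its WT values, 6.33 and 6.40. In a fit of the 4 groups of genotype and number range, 2 of the 7 passed in this range, where 0.983% of the tested probe sets passed and 0.734% passed as higher in TG. Cd52 was 4.39-fold higher in TG, at 6.59 ± 0.34 against 4.45 ± 0.31 (SD, n = 2), a log2 difference of 2.13 ± 0.20 (SE, limma adjusted p = 0.00398). Lyz2 was 7.95-fold higher, at 7.95 ± 0.92 against 4.96 ± 0.26 (SD, n = 2), a log2 difference of 2.99 ± 0.45 (SE, limma adjusted p = 0.0267). Ly86 (1.03 ± 0.35), Ptprc (0.85 ± 0.20), Csf1r (0.52 ± 0.21), Laptm5 (0.35 ± 0.23) and Cd14 (0.13 ± 0.17) did not pass (log2 differences with SE). These tests rest on 2 animals per group and borrow the spread of the other 6. With the 4 arrays fitted alone, 0 of the 7 passed, where 2 of the 6814 tested probe sets did. The limma adjusted p there was 0.248 for Cd52 and 0.301 for Lyz2. The Lyz2 call was lost without WT 618, WT 658, WT 663, TG 619 or TG 661 (adjusted p up to 0.111), while Cd52 passed without any 1 animal (adjusted p up to 0.0368).

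Within animals 650 to 663 the median of the 7 differences was 0.11, against -0.032 over all tested probe sets, and 0 of 7 genes passed, where 0.161% of the tested probe sets did. Lyz2 differed by 0.47 ± 0.37 (log2, SE), Csf1r by 0.28 ± 0.17, Laptm5 by 0.15 ± 0.19, Cd52 by 0.11 ± 0.16, Ptprc by 0.11 ± 0.16, Ly86 by 0.05 ± 0.29 and Cd14 by 0.02 ± 0.14. Csf1r was the 1 gene of the 7 in which all 3 TG animals lay above all 3 WT animals, a pattern held by 5.33% of the tested probe sets. TG 652 was the lowest of the 3 TG animals for each of the 7 genes. The share of all tested probe sets with that order was not computed, so it is not read as a trait of the marker genes. The array of TG 652 also had the lowest share of probe sets over the floor, 53.0%, and TG 652 is the 1 female of the 3.

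**Figure D3:**
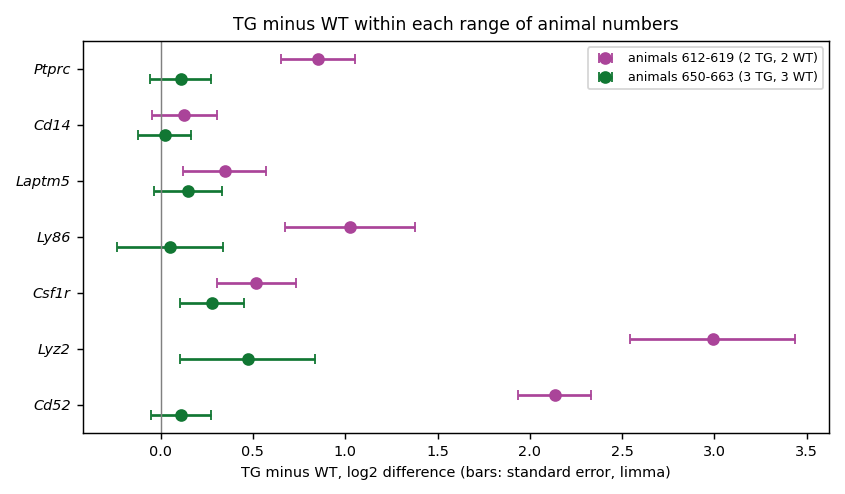
TG minus WT log2 difference of the 7 tested marker genes in animals 612 to 619 (purple, 2 TG and 2 WT) and 650 to 663 (green, 3 TG and 3 WT), with standard errors from limma. Lyz2 at 2.99 and Cd52 at 2.13 stand apart in the lower range, against 0.47 and 0.11 in the higher range.

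The difference between the ranges was itself tested. Of the 7 genes 0 passed, as did 0 of the 6814 tested probe sets, so the 2 ranges are not shown to differ for any 1 gene. With the brightest probe set of each gene, the TG minus WT difference was larger in animals 612 to 619 for 7 of 7 genes, against 59.2% of all tested probe sets. For the second tested probe sets, the lower range minus the higher was 0.46 for Laptm5 and -0.53 for Csf1r (log2). That of Csf1r thus went the other way. Without adjustment, 3 of the 7 had p under 0.05 (Cd52, Lyz2 and Ptprc), against 4.09% of tested probe sets in either direction and 2.74% with a larger difference in animals 612 to 619. For Cd52 the TG minus WT difference was larger by 2.03 ± 0.26 in animals 612 to 619 (log2, SE, adjusted p = 0.189), and its p was the smallest of all tested probe sets. For Lyz2 it was larger by 2.52 ± 0.58 (adjusted p = 0.913) and for Ptprc by 0.74 ± 0.26 (adjusted p = 0.9995). Part of the Lyz2 gap lay in the WT animals, which read 4.96 in the lower and 5.88 in the higher range. The shared Lyz1 and Lyz2 probe set had the same arrangement, with log2 differences of 3.32 and 0.54.

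By chip lot, the 5 arrays of the first lot gave log2 differences of 2.64 for Lyz2 and 2.09 for Cd52, and the 4 arrays of the second gave 0.45 and 0.09. By fluidics station the values were 2.26 and 0.31 for Lyz2 and 1.45 and 0.13 for Cd52. Whether lot, station or the 3' to 5' ratio has a part in these gaps was not tested. With the actin 3' to 5' difference as a covariate the log2 differences were 1.54 for Lyz2 and 1.13 for Cd52. In that fit 0 of the 7 genes passed, where 62 of the 6814 tested probe sets did. By sex, Lyz2 differed by 0.91 in the 4 females and 1.86 in the 6 males, and Cd52 by 0.83 and 0.98. With sex and number range in the model, 0 of the 7 genes passed, where 8.06% of tested probe sets did, and the adjusted p was 0.0850 for Lyz2, 0.0885 for Csf1r, 0.139 for Cd52 and 0.144 for Ptprc.

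Other macrophage genes came from a list without the 10. Of 26 genes 19 were on the array, 11 were tested and 10 of these lay higher in TG, with a median difference of 0.96 against -0.017 over all tested probe sets. Of the 11, 3 rose and 0 fell, where 0.792% of all tested probe sets rose. They were Lgals3, the galectin of activated macrophages, which tubule cells are also known to make (0.96 ± 0.16, adjusted p = 0.0184), Ctss, a cysteine protease of lysosomes (1.24 ± 0.23, adjusted p = 0.0370), and C1qa, a chain of the complement starter C1q (1.46 ± 0.31, adjusted p = 0.0493). Ctss differed by 1.92 in animals 612 to 619 and by 0.79 in 650 to 663, and C1qa by 2.33 and 0.88. The mean log2 level of the 11 genes was 5.97 to 6.72 in WT animals and 7.05 to 7.61 in TG animals, so the groups did not overlap, also for the higher number range alone. In the 650 to 663 range its median difference was 0.79 and that of the 7 marker genes 0.11, and the contrast between the lists was not tested. With sex and number range in the model 8 of the 11 rose, where 4.59% of all tested probe sets did. C1qc, 1 of these 8, had a WT mean of 3.31, under the floor of 4, against 5.10 in TG. The size of its difference thus rests on WT values under the floor. C1qc also counts in the 10 genes that lay higher, in the medians and in the mean level. These were not computed without it.

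Of 27 further pan-leukocyte genes 10 were tested, 7 lay higher, 0 passed and the median difference was 0.20. Cd53, a tetraspanin of leukocytes, differed by 0.74 ± 0.26 (SE, adjusted p = 0.267), and in animals 612 to 619 it rose by 1.43 (adjusted p = 0.0298). The phosphatase gene Ptpn18 differed by 0.32 ± 0.16 overall. The gene of PU.1 itself, Spi1, reached at most 2.22 and was not tested. In a list of signalling and receptor genes around Tyrobp and Fcer1g, 4 of 18 genes were tested and 0 passed. That list, not all of it downstream of the 2 adaptors, shares Vav1 and Lcp2 with the pan-leukocyte list. Plcg2, the phospholipase that acts after Syk, differed by 0.51 ± 0.13 (adjusted p = 0.0993). The inhibitory receptor gene Sirpa differed by 0.21 ± 0.13. Syk reached at most 3.27. Around Cd14, 3 of 15 genes were tested and 0 passed, with the NF-kappaB inhibitor gene Nfkbia at 0.43 ± 0.20 and the adaptor gene Myd88 at -0.13 ± 0.08, and Tnf, Il1b and Il6 were under the floor on every array. From a list of genes of the Csf1r ligands and of the GM-CSF receptor, 2 were tested and 0 passed. The ligand gene Csf1 differed by -0.08 ± 0.16 and the GM-CSF receptor gene Csf2ra by 0.44 ± 0.17.

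Of 19 chemokine and adhesion genes 5 were tested, 4 lay higher and 0 passed. Vcam1, the endothelial and stromal ligand by which leukocytes attach, differed by 1.22 ± 0.38 (adjusted p = 0.202), and it rose in animals 612 to 619 (adjusted p = 0.0312), at 7.09 and 7.33 in TG 614 and TG 619 against 5.64 and 4.57 in WT 612 and WT 618. The chemokine gene Cx3cl1 differed by 0.41 ± 0.20 overall. For 4 of these 5 genes TG 614 and TG 619 were the 2 highest animals.

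Markers of other blood cells were mostly unreadable. Of 12 neutrophil genes on the array 0 were tested and 10 were under the floor on every array, S100a8 at no more than 3.41. Of 14 T cell genes on the array 1 was tested, Cd3d, at -0.14 ± 0.15, and Cd3e reached at most 2.20. Of 7 NK cell genes 3 were tested, 0 lay higher, and Ncr1 and Klrk1 both differed by -0.14. Of 4 tested B and plasma cell genes 1 rose, the adaptor gene Blnk (1.59 ± 0.30, adjusted p = 0.0370), while Cd79a and Cd79b were under the floor throughout. The 2 tested dendritic cell genes, Zbtb46 (0.24 ± 0.16) and Cd83 (-0.05 ± 0.11), did not pass. Kit, the 1 tested mast cell gene and also known from intercalated cells, rose by 1.30 ± 0.26 (adjusted p = 0.0440), while Cpa3, Mcpt4 and Tpsb2 were not tested. Of 3 tested blood and platelet genes 0 passed, with Gp9 at -0.20 ± 0.12 and haemoglobin Hba-a1 at 0.20 ± 0.17, the latter at 0.70 in animals 612 to 619 and -0.13 in 650 to 663.

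Markers of the kidney's own compartments and of fat followed. Of 8 endothelial genes 0 passed, with a median of 0.011, Kdr at -0.18 ± 0.12 and Flt1 at -0.10 ± 0.15. Of 2 tested adipose genes 0 passed, Fabp4 at -0.15 ± 0.11 and Lep at -0.11 ± 0.10. WT 650 stood apart in 2 fat genes that the filter left out: the adipokine gene Adipoq read 8.17 there against 3.07 to 4.91 in the other animals, and Retn 7.13 against at most 4.26. Without WT 650, 0 of the 7 marker genes passed between TG and WT, where 92 of the 6814 tested probe sets did. Of 7 proximal tubule genes 0 passed, with a median of -0.26, Slc34a1 at -0.40 ± 0.08 (adjusted p = 0.0533) and Slc22a12 at -0.71 ± 0.31, and of 6 distal genes 0 passed, with a median of 0.44, Slc12a3 at 0.92 ± 0.21 (adjusted p = 0.0722) and Hsd11b2 at 0.47 ± 0.17. With sex and number range in the model, 3 of the 7 proximal tubule genes fell (Slc34a1, Slc22a6 and Slc22a12), where 3.46% of all tested probe sets fell, and 3 of the 6 distal genes rose (Slc12a3, Hsd11b2 and Slc12a1). The mean log2 level of the 7 proximal tubule genes was 11.89 to 12.36 in TG and 12.23 to 12.66 in WT animals. The part of any shift in tubule RNA in the marker differences was not tested.

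**Figure D4:**
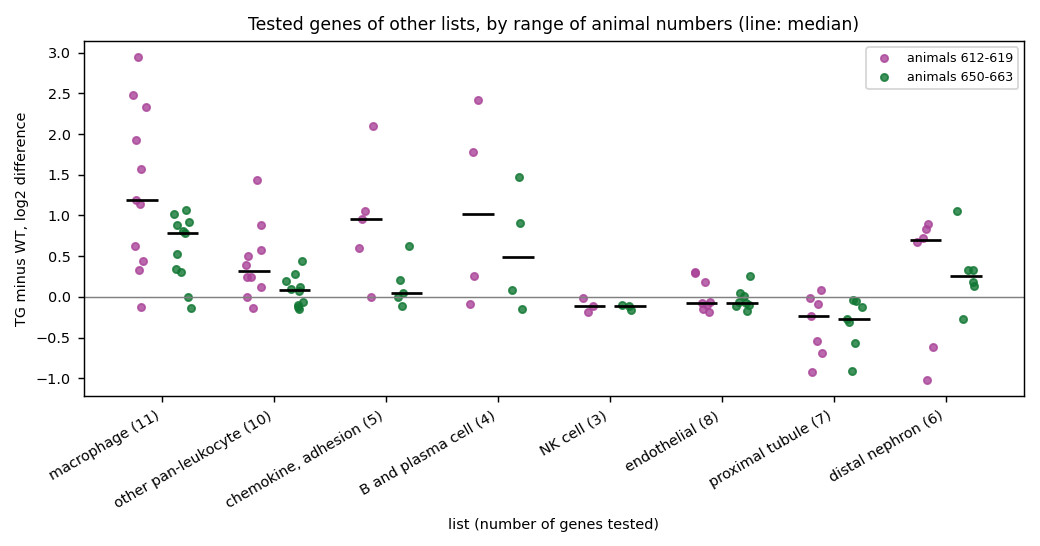
TG minus WT log2 difference of each tested gene in 8 other lists, in animals 612 to 619 (purple) and 650 to 663 (green), with a line at each median and the number of genes in brackets. The macrophage list has medians of 1.19 and 0.79 in the 2 ranges, the pan-leukocyte list 0.32 and 0.08, and the endothelial list -0.08 and -0.07.

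Genes with the pattern most like that of the markers were sought among the 5287 other genes with a tested probe set, by Pearson's r over the 10 animals with the mean standardised profile of the 7 marker genes. The 8 closest were Tap1 (r = 0.972), Cd53 (0.947), Lyl1 (0.941), Jchain (0.936), C1ra (0.925), Ighg3 (0.909), Zbtb46 (0.906) and Aoc1 (0.905), with Spearman's rho of 0.552 to 0.927. These values describe likeness only and have no test, since they were picked as the highest. Without TG 614 and TG 619, r over the other 8 animals was 0.956 for Cd53, so its likeness did not lean on them. It was 0.849 for Aoc1 and 0.798 for Tap1, and fell to 0.499 for Lyl1 and 0.534 for Ighg3. For Lyl1, C1ra and Ighg3, TG 619 alone stood out, at 6.31, 6.41 and 5.89. TG 614 read 4.61, 6.16 and 3.96 there, near the other animals. Tap1, the peptide transporter of antigen presentation, read 5.05 in TG 614 and 5.55 in TG 619 against 4.39 to 4.67 in the other 8 animals. Jchain, the joining chain of secreted antibodies, read 8.87 in TG 619, 6.85 in TG 661, 6.28 in TG 614 and 6.09 in TG 657, against 4.55 in TG 652 and 4.66 to 5.26 in WT. Ighg3 is read by a probe set of a family of near-identical immunoglobulin genes and is uncertain as to which member it reads.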

How the data were processed

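The authors deposited log2 expression values. Per the submitters' processing notes the tool was GCRMA (version not given), and the log2 scale follows from the range of the values. The run records of the arrays gave chip lot, fluidics station and order of days, per the file headers. Genes came from the platform annotation, and of 10833 probe sets naming 1 gene, 16 had a gene ID not found in the RefSeq table. For genes with several probe sets, that of the highest average across the 10 arrays stood for the gene. TG and WT were compared by limma 3.58.1 in R 4.3.3 (lmFit, eBayes, two-sided) over 6814 probe sets with log2 over 4 on at least 5 of 10 arrays, with Benjamini-Hochberg adjustment over all of them and a threshold of 0.05. The number ranges were fitted as 4 groups with 1 pooled spread. Steps were tested on simulated data, and figures drawn with matplotlib 3.10.9. The number of arrays limits the precision. Animals with Xist at log2 over 6 were taken as female.

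The members, lists, number ranges and tests were chosen with earlier results of these data known. Named were every probe set of the members, up to 4 genes of each list that passed (2 of the smallest p if none did), and the 8 genes most alike in pattern. Genes named for lying under the floor, Adipoq, Retn, Slc22a6 and Slc12a1, and Kap and Umod as tissue checks, were chosen after their values were seen. Alternatives covered filters, normalization, scale, variance model, array weights, covariates, batches, probe set averaging, an exact permutation test, a stricter threshold and leaving out each animal.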

Additional observations from a re-analysis of the deposited data

Results flagged for a closer look

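Ly86 in TG 619, at a log2 value of 5.90, stood far from the other 4 TG animals, which lay at 4.17 to 4.59. It was the 1 such case among 18 sets of 5 values (9 tested probe sets in each genotype), and chance alone marks about 5% of such sets.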

How the results depend on the processing

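The count of 0 marker genes past the test between TG and WT was 0 under all 31 alternatives, and that for the difference between number ranges was 0 under all 17. For the ranges, 0 of all tested probe sets passed in the main fit and in every alternative with all 10 arrays. That 0 is therefore not particular to the marker genes. Between TG and WT, a threshold of 0.01 could not have raised a count of 0. The count of all probe sets between TG and WT, 83, was 48 with no filter, 36 with median centring and 285 with sex in the model. It was 549 with sex and number range, 52 with station and 32 with day as block. At a threshold of 0.01 it was 18, and with 1 animal left out 31 to 92. It was 0 by the exact permutation test, where the smallest p of 0.00794 became 0.195 after adjustment. Too few of the 6814 probe sets reached that p for any to pass. In fits added after the data were seen it was 4 in animals 650 to 663 alone, 2 in animals 612 to 619 alone and 3 in the first chip lot alone. The block for lot leaves TG 661 out of the comparison in effect, as it is alone in its lot, and that for day leaves out WT 663 and TG 661.

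The 2 marker genes past the test in animals 612 to 619 were 1 with the filter at log2 over 6 (Lyz2, as Cd52 was not tested there), 4 with sex in the model (Ptprc and Ly86 added), 3 with no filter (Tyrobp added), 1 to 3 with 1 animal left out and 0 with those 4 arrays alone. Where 1 animal was left in an arm, as in the fits above without 1 of animals 612 to 619, it was assumed to vary like the others. The sign turned for Cd14, to -0.0051 with quantile normalization, and to -0.029 at the low end of a range up to 0.11 with 1 animal left out. It turned for the second probe set of Csf1r (161832_r_at), to 0.12 with array weights, 0.13 in animals 650 to 663 alone, and up to 0.050 from -0.28 with 1 animal left out. The causes were not tested. The other 7 tested marker probe sets kept a positive difference in every alternative that gave a value. No paired analysis was possible because the groups share no animal numbers and the labels pair no littermates. Values near the floor of 4, as for Ly86, Tyrobp and Cd52, limit what can be read of the least abundant markers. Cd52 read 4.23 to 4.67 in the WT animals, so the size of its differences rests on values near the floor.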
